A study of Mus musculus with 20 samples.

Results

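Early p65 sites that were called after 30 min of lipopolysaccharide (LPS) and in no p65 list before treatment or at 8 h were examined in mouse bone-marrow-derived macrophages. p65 (RELA) is the NF-κB subunit that activates most inflammatory genes, and LPS is the bacterial product sensed by the receptor TLR4. A site qualified if its peak in wild-type (WT) cells at 30 min overlapped a peak of knockout (KO) cells at 30 min by at least 1 bp and its centre lay more than 500 bp from every p65 peak centre of the KO and WT control and 8 h lists. This held for 4782 of the 36030 p65 peaks of WT cells at 30 min, or 13.3%, and each of them met a different KO peak. Among the 23189 WT peaks that overlapped a KO peak at 30 min, the 4782 sites were 20.6% (exact 95% interval 20.1 to 21.1%). They are called transient sites here. The name describes the lists, and p65 may be present below the calling limit where no peak was listed. The sites were selected on the p65 peaks listed at control, 30 min and 8 h, so the p65 values are given as a description with no test.

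KO macrophages received no LPS (control) or 100 ng/mL of it, and were taken after 30 min or 8 h. The same was done with WT macrophages, whose strain the design text writes as C65BL6. The design text calls the KO NOS1 while the title of the study is about SOCS1, so the disrupted gene is not settled here; age, sex and the number of animals are not given in the sources used here. All cells were differentiated from bone marrow for 5 days with macrophage colony-stimulating factor and lightly fixed before CUT&RUN, in which an antibody directs a nuclease to cut out the DNA around its target. Antibodies against p65 and SOCS1 gave 12 peak lists with 258959 peaks in all, 1 list for each antibody, genotype and treatment, each called against a matching IgG library. With 1 library per group no test between groups was possible, and the exact 95% intervals given for shares cover counting error only.

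NF-κB dimers that contain p65 are held in the cytoplasm by IκB proteins and enter the nucleus within minutes of TLR4 signalling. There they bind κB sites at promoters and enhancers and activate cytokines, chemokines and their own inhibitors, such as IκBα and A20, which later end the first wave of binding. SOCS1, an inhibitor of cytokine receptor kinases that LPS induces, can also be found in the nucleus and binds p65, and its chromatin sites were mapped in the same cells.

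Sequence was at hand for the transient sites that reach a promoter. RefSeq promoter windows (GRCm38.p6, the mm10 build; 250 bases before to 50 after each start) overlapped 393 transient sites, 8.22% of the 4782. In 197 windows at least 60 bases before the start lay inside a site, and 4 of these 197 stretches held the NF-κB consensus motif. The stretches were 60 to 250 bases long, and no share for like stretches over all promoters is given here. These 4 are shown because they put p65 signal and the motif in the same bases, with the motif in capitals, 5′ to 3′ on the strand of the gene.
Polg2: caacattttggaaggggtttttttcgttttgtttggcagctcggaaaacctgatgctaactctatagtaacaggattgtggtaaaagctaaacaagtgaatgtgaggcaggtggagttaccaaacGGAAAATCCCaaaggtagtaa
Alg6: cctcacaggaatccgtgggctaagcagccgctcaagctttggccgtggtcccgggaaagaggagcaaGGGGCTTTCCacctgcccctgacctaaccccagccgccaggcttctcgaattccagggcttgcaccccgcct
Nrtn: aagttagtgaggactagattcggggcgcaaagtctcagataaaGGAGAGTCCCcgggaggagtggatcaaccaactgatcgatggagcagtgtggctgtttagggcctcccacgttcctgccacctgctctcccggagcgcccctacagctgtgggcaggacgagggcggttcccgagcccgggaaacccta
Sipa1l3: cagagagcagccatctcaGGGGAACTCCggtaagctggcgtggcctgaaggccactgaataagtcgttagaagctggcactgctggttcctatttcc
The Polg2 stretch, at chr11:106779642-106779787 on the minus strand, lies before the gene of the accessory subunit of the mitochondrial DNA polymerase, and its site scored 51.5 in KO and 33.5 in WT cells. The score is the number of tags in the peak with at most 1 counted per base, and it is not scaled to depth. The Alg6 stretch (chr4:99715380-99715518, plus strand) precedes a glucosyltransferase gene of protein glycosylation, with scores of 23 in KO and 18.5 in WT cells. The Nrtn stretch (chr17:56757607-56757798, minus strand) precedes the gene of the growth factor neurturin and scored 23 in KO and 13 in WT cells. The Sipa1l3 stretch (chr7:29505461-29505557, minus strand) scored 28 in KO and 10.0 in WT cells, the lowest WT score of any transient site. The Polg2 site was also in 5 of the 6 SOCS1 lists, with scores of 18, 28 and 20.0 at control, 30 min and 8 h in KO cells and of 22.5 and 11.5 at 30 min and 8 h in WT cells. The Alg6 site was in the SOCS1 lists at 30 min alone, with 13 in KO and 9.5 in WT cells. The Nrtn and Sipa1l3 sites were in no SOCS1 list.

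A pair of other stretches at transient sites holds no match to that motif. The Clec4d stretch is only 95 bases of a site at chr6:123261697-123261951. Bases of a site outside the promoter windows were not at hand and were not searched. The first fills the whole upstream window of Gng2, which encodes a G-protein gamma subunit, at chr14:19976694-19976943 on the minus strand; its capitals mark TGANTCA, the core that AP-1 factors bind. The other lies before Clec4d, the gene of a C-type lectin of myeloid cells, at chr6:123261857-123261951 on the plus strand, and belongs to the transient site with the highest WT score among those with such a stretch; none of the motifs searched lies in it.
Gng2: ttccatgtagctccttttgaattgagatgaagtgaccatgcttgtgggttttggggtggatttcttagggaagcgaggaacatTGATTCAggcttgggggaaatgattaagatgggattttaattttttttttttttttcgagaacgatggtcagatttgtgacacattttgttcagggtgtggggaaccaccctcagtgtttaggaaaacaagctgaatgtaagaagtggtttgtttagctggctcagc
Clec4d: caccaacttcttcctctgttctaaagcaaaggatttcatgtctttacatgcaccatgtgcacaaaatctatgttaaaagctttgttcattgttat
The Gng2 site scored 79.5 in KO and 49.5 in WT cells, and the Clec4d site 112.5 in KO and 94.5 in WT cells.

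Over whole promoter windows, the NF-κB and AP-1 motif shares at transient sites lay near those of all promoters. Both strands were searched, and overlapping matches of different motifs were each counted. The NF-κB consensus was in 24 of 432 promoters that overlapped a transient site, or 5.56% (3.59 to 8.15%), against 6.18% of 599 promoters at sites retained at 8 h in both genotypes and 4.81% of all 21263 promoters. A stricter form, GGGA and TTTCC with any 1 base between them, was in 0.463% of the promoters at transient sites, against 0.423% of all promoters. TGANTCA was in 6.02%, against 6.99% of all promoters, and TGACGTCA, the cyclic AMP response element, in 3.94% of the promoters at transient sites, 2.67% at retained sites, 3.7% at all p65 peaks of WT cells at 30 min and 2.23% of all promoters. A pair of GAAA 2 bases apart, the core of interferon response elements, was in 2.78% of the promoters at transient sites, 5.68% at retained sites and 3.35% of all promoters. GGGCGG, the GC box, was in 65.3% of the promoters at transient sites, against 61.4% at retained sites, 65.3% at all p65 peaks of WT cells at 30 min and 46.2% of all promoters. A match is a description of the letters and not of binding.

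The other 18407 sites shared by KO and WT cells at 30 min fell into 4 groups. At 5732 (24.7%) no control list but both 8 h lists held a p65 centre within 500 bp; these are called sustained sites. A further 1763 had a centre at 8 h in KO cells alone, 3754 at 8 h in WT cells alone, and 7158 (30.9%) were within 500 bp of a control site. Transient sites had low scores. Their KO score ranged from 11 to 158 with a median of 26, and their WT score from 10.0 to 142.5 with a median of 19.5. Sustained sites had a median score of 47 in KO and 35.5 in WT cells. The 25th to 75th percentiles of the WT score were 14.5 to 27.5 at transient sites and 25 to 53 at sustained sites.

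**Figure D1:**
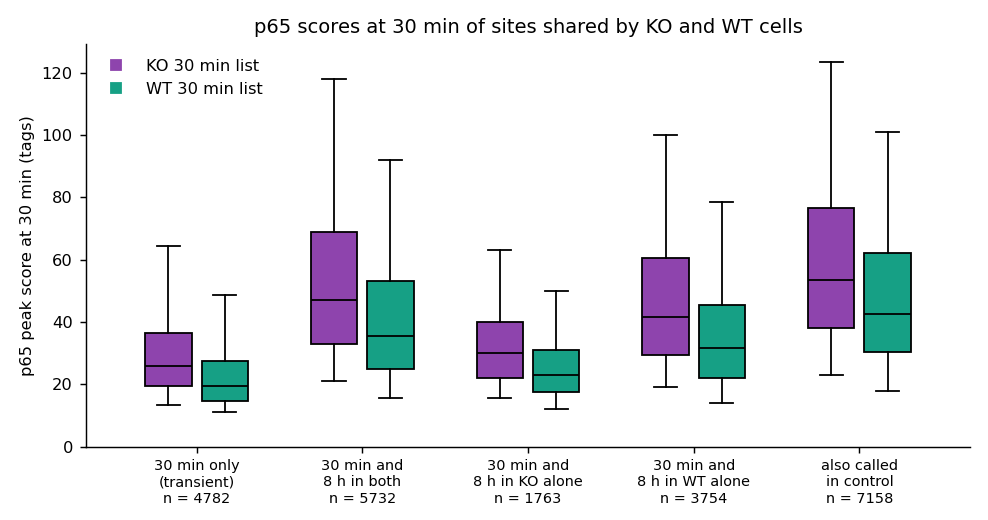
Box plots of the p65 score at 30 min (tags, not scaled to depth) in the KO and WT 30 min lists for the 5 groups of sites shared by both genotypes; the box spans the 25th to 75th percentile, the line is the median and the whiskers reach the 5th and 95th percentiles. Transient sites have the lowest medians, 26 in KO and 19.5 in WT cells, against 47 and 35.5 at sustained sites.

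Depth enters these scores and the definition itself. The p65 libraries at 30 min held 18.4 M tags in KO and 13.3 M in WT cells (10 M being 10000000), while those at 8 h held 11 M in KO and 10.6 M in WT cells and the control libraries 8.79 M in KO and 7.69 M in WT cells. If the 30 min scores are scaled to the depth of the 8 h libraries, 3211 transient sites (67.1%) would still reach the lowest score of both 8 h lists, against 95.1% of sustained sites. The remaining 1571 would fall below it in at least 1 of the 8 h lists. Scores alone were compared here. The authors' limits of 4-fold over IgG and over the 10 kb around were not applied again, so fewer sites might be called at that depth. The control libraries were shallower still, and scores were not scaled to their depth, so absence at control was not checked in this way. The shared sites were cut into 4 groups of like size by WT score. In the group with the lowest scores (10.0 to 21), 2733 sites, or 46.1%, were transient. The share was 21.5% in the next (21.5 to 31.5), 9.99% in that of 32 to 48.5 and 4.16%, or 238 sites, in the highest (49 to 242.5). IgG tags were at their floor of 0.5 under 44.6% of transient peaks in KO and 44.2% in WT cells, against 26.9% and 25.3% of sustained peaks.

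Once scaled to 10 M tags, transient sites carried nearly the same signal in both genotypes, with medians of 16.8 in KO and 16.9 in WT cells. The ratio of KO to WT signal had a median of 0.975, and its 5th and 95th percentiles were 0.584 and 1.61. KO was higher at 2226 of the 4782 sites (46.5%). At sustained sites the median ratio was 1.04. Among transient sites with a score of at least 20.0 in either list, the largest ratio was 3.94, at chr16:7593383-7593637, 181030 bp from an end of Rbfox1, a neuronal splicing factor gene, where the scaled signal was 35.5 in KO and 9.01 in WT cells. The next were near Aoc1 (2.79) and Rab3d (2.76). In WT cells these sites scored 11.5 near Rbfox1, 11 near Aoc1 and 11.5 near Rab3d, close to the lowest score of that list, 10. The smallest ratios were 0.299, near Doxl2 with a signal of 7.87 in KO and 26.3 in WT cells, 0.380 inside Rassf8 and 0.384 near Glul, the gene of glutamine synthetase.

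The transient site with the highest WT score lay beside Zfp36, which encodes tristetraprolin, a protein that destabilises cytokine mRNAs. It spans chr7:28381654-28381908, 2553 bp from the start of Zfp36, and scored 141.5 in KO and 142.5 in WT cells. The nearest other p65 centres were 8419 bp away at control and 31465 bp away at 8 h in KO cells, and 31362 bp away at control and 8536 bp away at 8 h in WT cells. SOCS1 was called at the same place at 30 min in both genotypes, with scores of 110.5 in KO and 52.5 in WT cells, and in none of the control and 8 h SOCS1 lists. These SOCS1 scores were the highest of all transient sites in either genotype.

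Further strong sites were near regulators of the LPS response. A site at chr10:19045722-19045976 scored 128 in KO and 105.5 in WT cells and lay 30439 bp from Tnfaip3, which encodes A20, an enzyme that ends NF-κB signalling. A site inside Cd274, the gene of the checkpoint ligand PD-L1, scored 87 in KO and 103.5 in WT cells, with SOCS1 at 30 min scoring 27 in KO and 25 in WT cells. A site 10759 bp from Atf3, a stress-induced repressor of inflammatory genes, scored 108 in KO and 100.5 in WT cells; here SOCS1 was called at 30 min with 50.5 in KO and 24.5 in WT cells, and in KO cells also at control with 19 and at 8 h with 33. A site 333 bp from the start of Plscr1, an interferon-induced scramblase, scored 90.5 in KO and 97.5 in WT cells. The site between Gpx1, an antioxidant enzyme, Rhoa, a GTPase of the cytoskeleton, and Usp4 scored 90.0 in KO and 92 in WT cells. SOCS1 there scored 73 in KO and 34.5 in WT cells at 30 min, and 46 at control in KO cells alone.

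Among the other sites with high WT scores, one inside Lpp, which encodes an adhesion protein, scored 157 in KO and 126 in WT cells. One inside Mki67, the gene of the proliferation protein Ki-67, scored 135.5 in KO and 120.0 in WT cells. One inside Ptprj, a receptor tyrosine phosphatase gene, scored 158 in KO and 103 in WT cells. One inside Rbms1, an RNA-binding protein gene, scored 139.5 in KO and 95 in WT cells. Those inside Rapgef2 and Niban1 scored 154 and 117.5 in KO and 96.5 and 94 in WT cells. A site 72257 bp from Klf6, a zinc-finger transcription factor gene, and one 41958 bp from Pdhx were strong for p65 and in no SOCS1 list. Of the 15 sites with the highest WT scores, 4 had an 8 h p65 centre within 1 kb, just past the 500 bp limit: those near Tnfaip3 (741 bp), in Ptprj (514 bp), at Plscr1 (543 bp) and at Gpx1 (691 bp), each in WT cells. The site in Lpp had a control centre of WT cells at 709 bp, and that in Rbms1 one of KO cells at 623 bp.

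**Figure D2:**
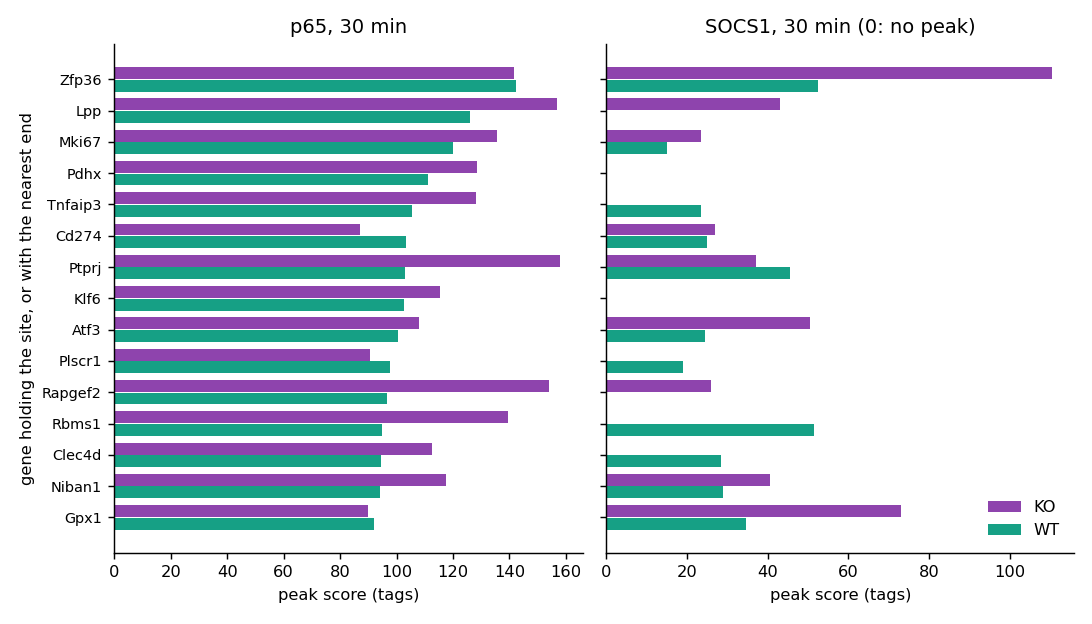
Bars give the peak score (tags) at 30 min in KO and WT cells for the 15 transient sites with the highest WT p65 score, p65 on the left and SOCS1 on the right; a missing bar means no SOCS1 peak. p65 is strong in both genotypes throughout, while SOCS1 varies, with the highest scores, 110.5 in KO and 52.5 in WT cells, at Zfp36.

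The limit of 500 bp was close for some sites. The nearest inside it had a centre at 501 bp, among them sites at Far1 (scores 62 in KO and 37.5 in WT cells) and near Mok (63.5 and 52.5). Of the sites just outside, 3 at exactly 500 bp scored 85, 61 and 44.5 in KO cells and 60, 42 and 35.5 in WT cells. Over all transient sites the nearest p65 centre at 8 h in either genotype was a median of 7127.5 bp away. It was within 1 kb at 13.7%, within 10 kb at 59% and within 50 kb at 90.3%. The KO list at 8 h keeps peaks at least 986 bp apart, and 421 transient sites (8.80%) lay within that distance of a KO 8 h centre.

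In their position relative to genes the transient sites resembled sustained ones. Their centres lay within 1 kb of an end of a protein-coding gene at 18.3% (17.2 to 19.4%), against 18.4% of sustained sites, 35.2% of sites also called in control cells and 22.6% of all p65 peaks of WT cells at 30 min. Start sites were within 1 kb at 15.8% of transient sites, against 15.9% of sustained sites, 31.8% of sites also called in control cells and 19.7% of all p65 peaks. A further 44.2% of transient sites lay elsewhere inside a gene and 37.5% outside genes. At 53.8% the nearest gene end was over 10 kb away (52.4 to 55.2%), against 57.2% of sustained sites (55.9 to 58.5%). It was over 50 kb away at 20.9%, against 21.8%. In the lowest of the 4 score groups, 16.3% of transient sites (14.9 to 17.7%) lay within 1 kb of a gene end. The share of sustained sites there was 11.3% (9.31 to 13.5%). The intervals overlapped in the other groups.

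SOCS1 was listed at transient sites most often at 30 min. Should the disrupted gene be Socs1, the KO SOCS1 peaks could not be read as SOCS1 binding, so the KO values here are those of the antibody's peaks. In KO cells, SOCS1 peaks overlapped 12.1% of the transient sites at control, 16.7% at 30 min and 6.98% at 8 h. In WT cells the shares were 5.31% at control, 18.4% at 30 min (17.3 to 19.5%) and 4.91% at 8 h. At sustained sites the KO shares were 23.5%, 43.4% and 42.7% at control, 30 min and 8 h, and the WT shares 12.9%, 40.1% and 38.3%. Over all p65 peaks of WT cells at 30 min, SOCS1 of KO cells was present at 23.4%, 30.9% and 24.7% in the same order, and SOCS1 of WT cells at 13%, 28.9% and 21.7%. At transient sites the WT share was 13.1 percentage points above control at 30 min and differed from it by -0.397 points at 8 h, while the KO share differed from control by 4.58 points at 30 min and -5.17 points at 8 h. SOCS1 did not choose the sites, but the p65 and SOCS1 lists of 1 genotype and treatment share an IgG library and are not independent. The KO control libraries also differed in IgG, which was at its floor under 88% of SOCS1 peaks and 91.4% of p65 peaks, against 14.7 to 43% in the other lists, and its part in the KO control share was not tested. KO SOCS1 peaks were also wider than WT ones (375 to 414 bp against 227 to 343 bp), which gives them more room to overlap a site. The SOCS1 lists differed in size as well. Those of KO cells held 24270, 19931 and 15633 peaks at control, 30 min and 8 h, and those of WT cells 9438, 19631 and 13720. The part of list size in these shares was not tested.

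**Figure D3:**
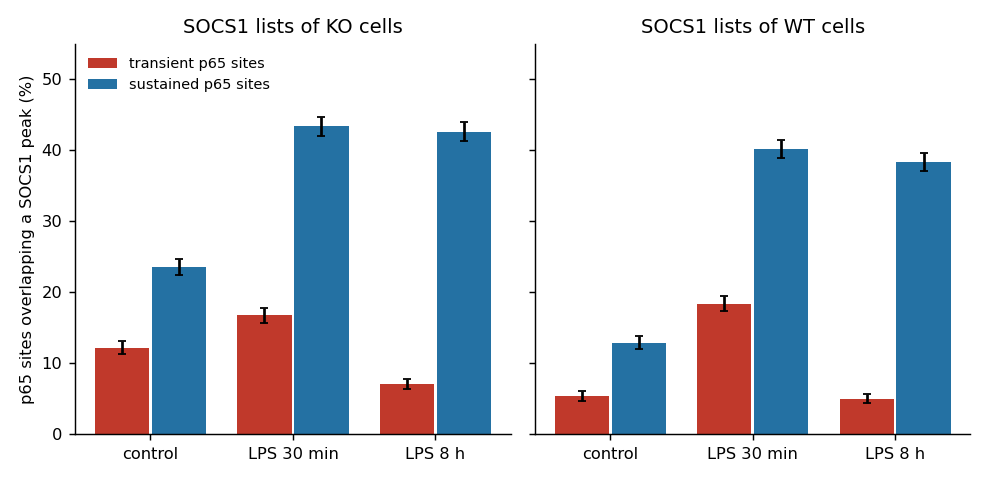
Bars give the percentage of transient and sustained p65 sites that overlap a SOCS1 peak at control, 30 min and 8 h, with the SOCS1 lists of KO cells on the left and of WT cells on the right; error bars are exact 95% binomial intervals over sites. At 8 h the share is 6.98% in KO and 4.91% in WT cells at transient sites, against 42.7% and 38.3% at sustained sites.

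The SOCS1 peaks of the 30 min lists were seldom seen again at the same transient sites. In KO cells, 800 transient sites held SOCS1 at 30 min, and 116 of them (14.5%) also at 8 h, against 57.8% of such sustained sites. In WT cells, 879 transient sites held SOCS1 at 30 min, and 97 (11%) also at 8 h, against 52.7% of such sustained sites. Before LPS, SOCS1 had been listed at 184 of the 800 sites in KO cells (23%) and at 74 of the 879 in WT cells (8.42%). At 300 transient sites SOCS1 was present at 30 min in both genotypes, and at 1379 (28.8%) in at least 1. At 865 (18.1%) it was present at 30 min in at least 1 genotype and in no control or 8 h SOCS1 list. No SOCS1 list held a peak at 2809 transient sites (58.7%).

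These shares moved with p65 strength, so transient and sustained sites were set side by side within these 4 score groups. The groups use the WT score for KO lists too, and they do not make p65 strength equal. From the lowest group up, the median WT score was 15, 25, 37.5 and 60 at transient sites. At sustained sites it was 17, 26.5, 39 and 66.5. The part of these differences in the gaps below was not tested. In the SOCS1 list of WT cells at 30 min the shares from the lowest to the highest group were 9.11%, 22.5%, 36.9% and 58% at transient sites and 10.3%, 24.6%, 41.6% and 68.8% at sustained sites. The intervals overlapped in the lower 3 groups and were apart in the highest (51.4 to 64.3% against 66.5 to 71%). In KO cells at 30 min the shares were 7.90%, 22.7%, 34.9% and 42.9% at transient sites and 12.4%, 27.7%, 46.3% and 71.3% at sustained sites, with intervals that were apart in all 4 groups. At 8 h the gap was wide in all 4 groups. SOCS1 of KO cells at 8 h overlapped 4.24%, 9.03%, 12% and 15.5% of transient sites, against 24.2%, 32.1%, 45.5% and 59.4% of sustained sites. SOCS1 of WT cells at 8 h overlapped 1.76%, 6.27%, 12.2% and 16.4% of transient sites, against 15.9%, 25.5%, 39.2% and 61.1% of sustained sites.

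**Figure D4:**
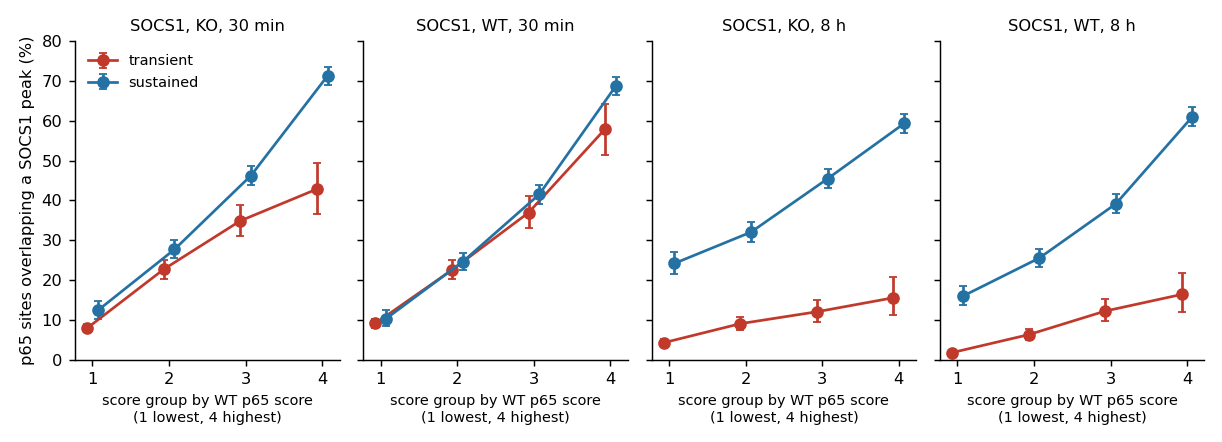
Points give the percentage of p65 sites that overlap a SOCS1 peak, for transient and sustained sites in each of 4 groups of the WT p65 score at 30 min, with SOCS1 of KO and WT cells at 30 min and then at 8 h; bars are exact 95% binomial intervals over sites. The intervals overlap only in the lower 3 groups of WT cells at 30 min; in the highest group the shares are 42.9% against 71.3% in KO and 58% against 68.8% in WT cells at 30 min, and 15.5% against 59.4% in KO and 16.4% against 61.1% in WT cells at 8 h.

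High SOCS1 scores at transient sites of WT cells at 30 min were also found in Rbms1 (51.5; no KO peak at 30 min), in Cxcr5, a chemokine receptor gene (22.5 in KO and 47 in WT cells), 23 bp from the start of Cog4 (53.5 in KO and 46 in WT cells) and in Ptprj (37 in KO and 45.5 in WT cells). The Cog4 site, by a Golgi transport gene, scored only 33 in KO and 29 in WT cells for p65. In KO cells the other high SOCS1 scores were at the site 748 bp from Nab2 and close to Stat6 (60) and inside Nfkbid (56), both without a SOCS1 peak in WT cells at 30 min. SOCS1 was also listed at control at Cog4 (49 in KO and 28.5 in WT cells) and, in KO cells alone, at Rbms1 (19.5), Cxcr5 (22) and Nab2 (45.5). At 8 h it was listed in Ptprj (24 in KO and 23.5 in WT cells) and, in KO cells alone, in Cxcr5 (21). The Cxcr5 site had a p65 centre of KO cells at 8 h 627 bp away.

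Transient sites were linked to protein-coding genes with an end within 10 kb of the site. This gave 2838 of 21887 genes (13%), reached by 2209 sites (46.2%); 58.9% of all genes had a p65 peak of WT cells at 30 min in that window, and 14.7% had a sustained site. Of the 2838 genes, 2551 had 1 transient site, 263 had 2 and 24 had 3 or more. The most, 5, were at Lbx1, a developmental homeobox gene, with scores up to 34 in KO and 21.5 in WT cells; Psen2, a subunit gene of gamma-secretase, had 4. Fkbp1a, Ppp1r12c and Cdhr4 were among those with 3. A sustained site was linked to 562 of the 2838 genes as well. Only 486 genes, 2.22% of all genes, had a transient site and no control or 8 h p65 peak of either genotype in the window. Among those with the highest scores, picked after their values were seen, were Med29, which shares the site beside Zfp36, Spns2, the exporter of sphingosine 1-phosphate (59 in KO and 56.5 in WT cells), Ccni, a cyclin gene (67.5 and 50.5), Ston1, an endocytic adaptor gene (70.5 and 50), and Foxl2, a forkhead factor gene (74 and 42). The gene 2010109A12Rik shares the Ccni site. Gm30698 (55.5 and 45.5) and B230219D22Rik (54.5 and 44) also had higher WT scores than Foxl2.

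In 21 lists of genes, 86 of 388 members (22.2%) had a transient site, against 13% of all genes; 347 of the 388 had a p65 peak of WT cells at 30 min, and of these 24.8% had a transient site, against 22% of all genes with such a peak. Pias3, an inhibitor of STAT signalling, was the only listed gene with a transient site and no control or 8 h p65 peak; its site, 296 bp from the start, scored 23.5 in KO and 26.5 in WT cells and held SOCS1 at 30 min with 24 in KO and 12 in WT cells. SOCS1 was also listed there at control in KO cells (22) and at 8 h in WT cells (13.5). All the others had another p65 site nearby in at least 1 control or 8 h list. p65 peaks of WT cells at 30 min were near 20 of 20 macrophage identity genes and 1 of 20 neuronal and hepatic genes. They were near 3 of 10 neutrophil, 7 of 10 lymphocyte and 6 of 8 dendritic cell marker genes, and near 15 of 15 housekeeping genes. Over all genes the share was 58.9%.

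**Figure D5:**
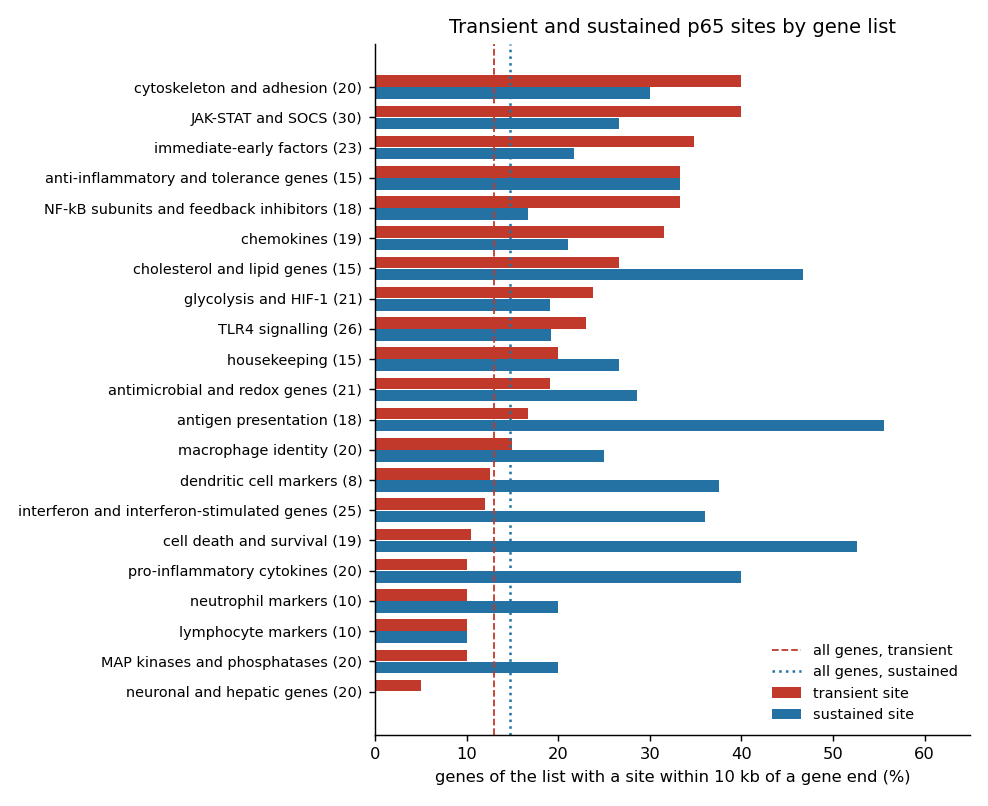
Bars give the percentage of genes in each list (number of genes in brackets) with a transient or a sustained p65 site within 10 kb of a gene end; the vertical lines mark the shares over all 21887 genes, 13% for transient and 14.7% for sustained sites. For transient sites the highest shares are those of cytoskeleton and adhesion genes (8 of 20) and JAK-STAT and SOCS genes (12 of 30); no test across lists was made.

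The counts by list are to be read beside the shares over all genes, 13% for transient and 14.7% for sustained sites. Among all genes with a p65 peak of WT cells at 30 min, which 347 of the 388 listed genes had, 22% had a transient site. Inhibitors and subunits of NF-κB had transient sites at 6 of 18 genes (33.3%) and sustained sites at 3. Nfkbid, which encodes a nuclear IκB protein, had a site 282 bp from its start that scored 102 in KO and 89.5 in WT cells, with a WT 8 h centre 539 bp away. Tnfaip3 had a site 415 bp from its start with 103.5 in KO and 77 in WT cells; at 8 h the gene's best other p65 peak scored 104 in KO and 49.5 in WT cells. Otud7b, a deubiquitinase gene, had 3 transient sites, the strongest with 63.5 in KO and 37.5 in WT cells. Traf1, an adaptor of TNF receptors, had a minor transient site (33.5 in KO and 32 in WT cells) beside a stronger p65 peak of 154.5 in KO and 127.5 in WT cells at 30 min.

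JAK-STAT and SOCS genes had transient sites at 12 of 30 (40%, against 13% of all genes) and sustained sites at 8. Beside Pias3, the strongest were close to Stat6 (85.5 in KO and 71 in WT cells), which transmits interleukin-4 signals, inside Jak2 (63 and 49), a cytokine receptor kinase gene, and near Cish (74.5 and 48.5), a SOCS-family member. The site near Stat6 is the one by Nab2, 24465 bp from the start of Stat6, with a WT 8 h centre 515 bp away. Socs1 itself, named here because the study is about its protein, had a transient site 2513 bp from its start. That site scored 45 in KO and 38.5 in WT cells and was in no SOCS1 list. The gene's best p65 peak at 30 min scored 57 in KO and 63.5 in WT cells.

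Immediate-early genes had transient sites at 8 of 23 (34.8%, against 13% of all genes) and sustained sites at 5. Apart from Zfp36, Fosl2, an AP-1 subunit gene, scored 104 in KO and 51 in WT cells at an internal site, Atf3 had a site 6927 bp from its start with 83 in KO and 66.5 in WT cells, and Fos scored 47 in KO and 44 in WT cells. The Fosl2 site had an 8 h p65 centre 944 bp away in KO and 879 bp away in WT cells. Chemokine genes had transient sites at 6 of 19 (31.6%, against 13% of all genes) and sustained sites at 4. A site 375 bp from the start of Cxcl1, a neutrophil attractant gene, scored 77 in KO and 76.5 in WT cells. Ccl4 (98 in KO and 74 in WT cells) and Ccl2 (83 and 72), which attract monocytes and other leukocytes, and Ccl24 (33.5 and 23) followed. The Ccl2 site had a WT control centre 783 bp away. At Cxcl1 no p65 peak was listed at 8 h in KO cells, while the best in WT cells at 8 h scored 83.5.

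Pro-inflammatory cytokine genes had transient sites at 2 of 20, near the 13% of all genes, and sustained sites at 8. The transient pair were Il18 (51.5 in KO and 32.5 in WT cells) and Il6 (32.5 and 18). Interferon and interferon-stimulated genes had transient sites at 3 of 25 (12%, near the 13% of all genes) and sustained sites at 9. The 3 were Oas1a, an antiviral sensor gene (31 in KO and 31.5 in WT cells), Ifnb1 (28 and 21.5) and Gbp3 (27 and 18.5). All 3 sites lay close to an 8 h p65 centre. At Oas1a it was 550 bp away in KO and 553 bp in WT cells, with a WT control centre at 599 bp. At Ifnb1 it was 778 bp away in KO and 732 bp in WT cells, and at Gbp3 621 bp away in KO cells. Antigen presentation genes had transient sites at 3 of 18 and sustained sites at 10, with Cd80, a co-stimulator of T cells, at 54.5 in KO and 48.5 in WT cells. The Cd80 site had an 8 h p65 centre 598 bp away in KO and 686 bp away in WT cells. Tap2 and Psmb8 share 1 weak site (18 in KO and 15 in WT cells). Cell death genes had transient sites at 2 of 19 (10.5%, near the 13% of all genes) and sustained sites at 10. The survival gene Bcl2a1b scored 86 in KO and 75.5 in WT cells and Birc2 13.5 and 16.

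TLR4 signalling genes had transient sites at 6 of 26 and sustained sites at 5, with Tlr4 itself (79 in KO and 55.5 in WT cells), Tollip (27 and 25) and Ikbke (37 and 22.5). The Tollip site had a KO 8 h centre 769 bp away. MAP kinase and phosphatase genes had transient sites at 2 of 20 (10%, near the 13% of all genes) and sustained sites at 4. Dusp1, a phosphatase that switches off MAP kinases, had a site 317 bp from its start with 62 in KO and 45.5 in WT cells. Map2k4 had one with 37 and 33. The Dusp1 site had a WT 8 h centre 630 bp away. Anti-inflammatory genes had transient sites at 5 of 15 (33.3%, against 13% of all genes) and sustained sites at 5. After Cd274 these were led by Il1rn, the interleukin-1 receptor antagonist gene (68.5 in KO and 54.5 in WT cells), Tsc22d3, a glucocorticoid-induced factor gene (34 and 30), and Havcr2 (31.5 and 29.5). Antimicrobial and redox genes had transient sites at 4 of 21 and sustained sites at 6; beside Gpx1, Sod2, the mitochondrial superoxide dismutase gene, scored 84.5 in KO and 87.5 in WT cells, 431 bp from its start.

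Metabolic and structural genes were also represented. Glycolysis and HIF-1 genes had transient sites at 5 of 21 and sustained sites at 4; Pfkp, a phosphofructokinase gene (51.5 in KO and 41 in WT cells), and Slc2a1, the glucose transporter GLUT1 gene (35 and 32.5), had no control p65 peak and none at 8 h in KO cells. Cholesterol and lipid genes had transient sites at 4 of 15 and sustained sites at 7, among them Abcg1, a cholesterol exporter gene (48.5 in KO and 24.5 in WT cells). Cytoskeleton and adhesion genes had transient sites at 8 of 20 (40%, against 13% of all genes) and sustained sites at 6. After Rhoa came Vim, the vimentin gene (58.5 in KO and 38 in WT cells), and Actg1, a cytoplasmic actin gene (48.5 and 31). Macrophage identity genes had transient sites at 3 of 20 and sustained sites at 5, with Mitf, a transcription factor gene, at 79.5 in KO and 75 in WT cells and Cebpb at 29.5 and 27.5.

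Control lists were not empty of transient sites. Housekeeping genes had them at 3 of 15 and sustained sites at 4, with Sdha at 49.5 in KO and 35.5 in WT cells. Neutrophil and lymphocyte markers had them at 1 of 10 each, Ltf (53 in KO and 30.5 in WT cells) and Cd4 (28 and 14), and dendritic cell markers at 1 of 8, Xcr1 (75 and 62.5). The Xcr1 site had a KO control centre 549 bp away. The only neuronal and hepatic gene with a transient site was Slc17a7, at 23 in KO and 19.5 in WT cells. Housekeeping genes, at 3 of 15 or 20%, thus lay above the 13% of all genes. All 15 had a p65 peak of WT cells at 30 min, and among all genes with such a peak the share was 22%. No test across lists was made.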

How the data were processed

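The labels list 20 samples: 12 antibody libraries with a peak list each, 6 IgG libraries used only inside those calls, and 2 internal controls not used here. Per the submitters' processing notes, cutadapt, Bowtie2 2.4.1, HOMER 4.11 and the mm10 build were used. Per the file headers, HOMER findPeaks called each list from 1 library against IgG, with a minimum of 4-fold over IgG and 4-fold over the 10 kb around it, an FDR of 0.001, a Poisson p of 0.0001 and at most 1 tag per bp. In the deposited lists the signal is tags scaled by the authors to 10 M. The score, per the file headers, is tags under that limit, not scaled to depth. The authors' IgG tag counts have a floor of 0.5, as the values show. The ratio is the authors' fold over IgG or over local tags, the p-value is the authors' Poisson p, and the focus ratio, a fraction computed by the authors, gives tags on the expected side; no result here uses the p-value or the fraction. An E. coli spike-in mentioned in the labels was not used here.

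Library totals were 6.93 to 18.4 M tags, and the lists began at scores of 7 to 12. Peaks were joined by overlap of 1 bp or by centres within 500 bp, and linked to 21887 protein-coding genes of RefSeq (GRCm38.p6, mm10) by either gene end within 10 kb. Start sites and sequences come from RefSeq promoter windows of 17492 genes. The steps that find overlaps, centre distances and gene links were checked on simulated peaks. Shares have exact Clopper-Pearson 95% intervals (SciPy 1.17.1, Python 3.11.15). Molecules were not counted separately, so these cover counting error only. There were no replicates and no test between groups.

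The sites and gene lists were chosen with earlier results of these data known. Text names the 15 highest WT scores, up to 4 genes a list, the 5 genes with most sites, the 5 highest SOCS1 scores in each genotype, the 3 largest and 3 smallest KO to WT ratios and 3 sites on each side of the limit; some that this rule picks are not reported here. Sites retained in 8 h SOCS1 lists, start-site shares and the sequences shown were chosen after values were seen.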

Additional observations from a re-analysis of the deposited data

How the results depend on the processing

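Against 4782 sites, the count was 6347 with a limit of 250 bp and 4028 with 1000 bp. It was 4279 when 50% of the WT peak had to be covered and 5786 when absence meant no overlap of 1 bp. It was 3211 when scores scaled to 8 h depth had to reach the lowest 8 h scores. The count was 4728 from the KO list, and 4361 without sites within the minimum distance of the KO 8 h list. It was 1857 with a local fold of at least 8 in both lists and 1769 with no other p65 site within 10 kb. The KO 8 h minimum distance, the 10 kb isolation, the start-site and stricter κB shares and the depth-scaled SOCS1 shares were chosen after seeing the data.

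The share with SOCS1 of KO cells at 30 min (16.7%) was 19.3% with SOCS1 centres within 500 bp, 15.5% at a local fold of at least 8, 19.3% with a limit of 250 bp, 15.4% with 1000 bp, 12% with no other p65 site within 10 kb, 21.9% after scaling to 8 h depth, and 7.90, 22.7, 34.9 and 42.9% by score group, low to high. That of WT cells (18.4%) was 21.8, 17.1, 20.7, 17.1, 13.3 and 24.6% in the same settings, and 9.11, 22.5, 36.9 and 58% by these. At sustained sites the first 2 settings gave 47.4 and 47% in KO and 45.4 and 44.2% in WT cells, so the transient share stayed lower in these. The share within 1 kb of a gene end (18.3%) was 13% at 500 bp, 24.5% at 2 kb, 16.9% at the higher local fold, 15.8% for start sites, and 16.3, 21.2, 22 and 16.8% by score group. The number of genes (2838) was 4873 with a 25 kb window, 1926 with 5 kb and 1069 at the higher local fold. Genes with no control or 8 h site (486) were 345 and 559 with 25 and 5 kb. The median score was 31.5 in KO and 24 in WT cells where IgG was above its floor in both lists, and 20.0 in KO and 15 in WT cells where it was at the floor. The motif share of 5.56% was 0.463% with the stricter κB form. The cause of these changes was not tested. No paired analysis was possible because each group has 1 library and no test was made.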

Other observations

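Transient sites took a larger share of the shared 30 min sites on chromosome X, 142 of 509 or 27.9% (24 to 32%), than on the autosomes, 4640 of 22680 or 20.5% (19.9 to 21%). The shared sites on chromosome X had lower scores, with medians of 35 in KO and 26 in WT cells, against 41.5 in KO and 32 in WT cells on the autosomes. From the lowest to the highest of 4 score groups the transient share was 49.2%, 27.9%, 10.7% and 2.82% on chromosome X and 46%, 21.4%, 9.97% and 4.18% on the autosomes, and the intervals overlapped in each group. The pattern was picked after its values were seen, and the part of the lower scores in it was not tested.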
